A study of Rattus norvegicus with 6 samples.

Results

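A set of 10 classical marker genes of macrophages was examined in RNA-sequencing libraries of rat heart cell cultures: C1qa, C1qb, C1qc, Lyz2, Adgre1, Cd68, Csf1r, Cd163, Mrc1 and Ptprc. They were taken by gene symbol from a table of 32623 genes, each of the 10 symbols stood in 1 row, and all 10 had a mean count of at least 10 over the 6 libraries and were tested. The cultures were primary ventricular myocardial cells of Sprague-Dawley rats at postnatal day 1 to 3, all from a single isolate pooled from several animals. One group of 3 libraries came from cells that received the control small interfering RNA siNC, and the other group of 3 from cells that received siMETTL3, directed against the m6A methyltransferase gene Mettl3. Both groups had 24 h of RNA interference before 6 h of lipopolysaccharide (LPS, bacterial endotoxin). Both groups therefore carry LPS and an interfering RNA, and their comparison says nothing of the response to LPS. Because the replicates share 1 isolate, the p-values rest on variation between libraries that could be technical.

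Macrophages are resident phagocytes of the heart, seeded before birth and around it, and a neonatal ventricle dissociated for cardiomyocyte culture releases them along with fibroblasts and endothelial cells. They depend on signals through the receptor Csf1r, whose ligands are Csf1 and Il34, and on the transcription factor PU.1, encoded by Spi1. The markers differ in what they report. C1qa, C1qb and C1qc encode the 3 chains of complement C1q, which in most tissues is made by macrophages; Lyz2 (lysozyme) and Cd68 (a lysosomal membrane glycoprotein) are products of phagocytic cells; Adgre1 encodes the surface receptor F4/80; Cd163 and Mrc1 are scavenger and mannose receptors of resident macrophages; and Ptprc encodes CD45, carried by all nucleated blood cells. In bulk RNA, fewer cells of a type and less RNA per cell cannot be told apart.

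The total count per library was 71202469 to 76668751. Mettl3 measured 18.2, 17.2 and 15.3 FPKM (fragment counts scaled by gene length and sequencing depth) with siNC and 10.3, 10.6 and 9.90 with siMETTL3, with no overlap (edgeR log2 fold change -0.80, SE 0.0792, adjusted p = 0.00313). Over all 16477 genes tested with edgeR's quasi-likelihood test and a Benjamini-Hochberg threshold of 0.05, 806 were lower and 381 higher in siMETTL3, or 7.20% in either direction. The median over all of these log2 fold changes was -0.0026. With scaling to the total count in place of trimmed-mean factors the split was 589 lower and 908 higher. Cardiomyocyte genes were abundant, as the labels have it: the 8 listed ones summed to 12971 to 14474 FPKM in siNC and 11759 to 13364 in siMETTL3. The macrophage markers summed to 72.3 to 89.7 FPKM in siNC and 37.1 to 48.8 in siMETTL3.

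All 10 markers had lower FPKM in every siMETTL3 library than in any siNC library, a separation that 10.9% of all tested genes showed in that direction. By edgeR 7 of the 10 fell, against 4.89% of all genes tested, and 0 rose; at an unadjusted p of 0.05 the numbers were 10 and 0, where 13.5% of all genes were lower. C1qa, C1qb, C1qc, Lyz2, Adgre1, Cd68 and Csf1r passed, whereas Cd163, Mrc1 and Ptprc did not. The median log2 fold change of the 10 was -1.07, or 47.5% of the siNC level. The markers were chosen with earlier results of these data known, so the shares over all genes are not an independent comparison. By DESeq2 all 10 fell (9.32% of all genes fell by it). By limma on log2(FPKM + 1) 5 of the 6 markers with a mean of at least 1 FPKM fell (4.40% of all genes) and Csf1r did not (adjusted p = 0.112). An exact 2-sided permutation test of 3 against 3 libraries cannot go below 0.1, which each of the 10 reached. The number of calls was 3 without siMETTL3 replicate 1 (C1qa, C1qb and Adgre1) and 4 without siNC replicate 1 (those 3 and Lyz2), and 5 to 6 without any 1 of the other libraries. All 10 fold changes stayed below 0 in each of these fits, where 50.5% of all genes were below 0 with every library in.

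**Figure D1:**
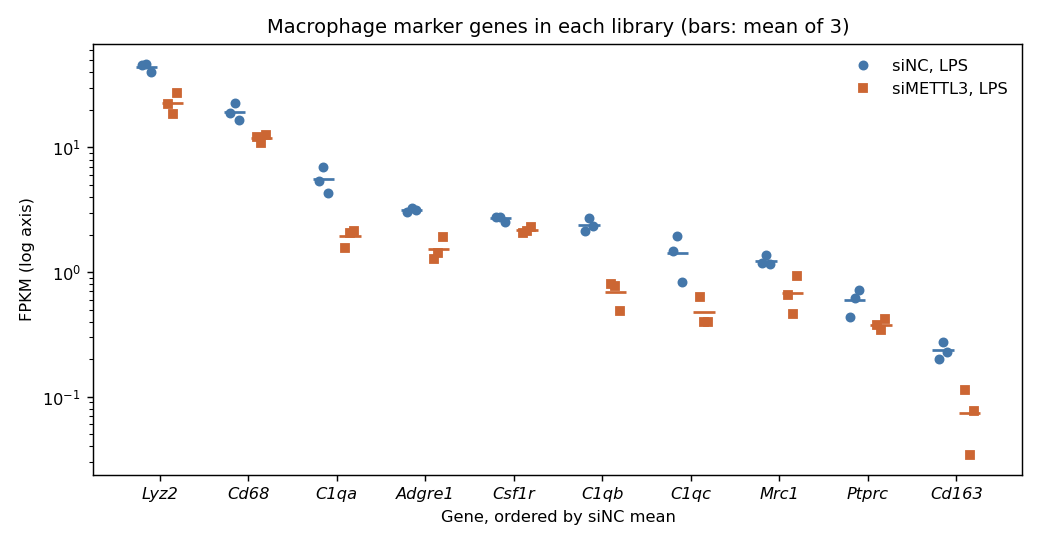
FPKM (log axis) of the 10 macrophage marker genes in each of the 3 siNC (blue circles) and 3 siMETTL3 (orange squares) libraries, ordered by the siNC mean; short bars are means of 3. Levels run from 44.4 FPKM for Lyz2 to 0.236 FPKM for Cd163 in siNC, and every orange square lies below the blue circles of its gene.

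Length-scaled levels placed the markers in an order that differed in part between the groups. In siNC, Lyz2 had the highest level, followed by Cd68, C1qa, Adgre1, Csf1r, C1qb, C1qc, Mrc1, Ptprc and Cd163. Lyz2, Cd68 and C1qa each lay above the next in all siNC libraries, and so did Adgre1 above Csf1r. The ranges of Csf1r and C1qb, and of C1qc and Mrc1, overlapped in siNC. In siMETTL3, Csf1r moved up to the third place, with 2.06 to 2.29 FPKM against 1.57 to 2.15 for C1qa, ranges that overlap.

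Macrophage genes are known for promoters that bind PU.1, often without a TATA box, so the 250 bases before the transcription start were searched for the PU-box GAGGAA and for TATAAA on both strands. Of the 10 markers 9 had a promoter in the RefSeq table of the GRCr8 assembly, matched by symbol; C1qc had no entry. The PU-box letters occurred in 7 of the 9, against 23.3% of all 33469 promoters in the table, and TATAAA in 0 of the 9, against 12.9%. A match of 6 letters is a description and not a binding site. The sequences shown are those of Lyz2, the most abundant marker, of Cd68 and Mrc1, with a match close to the start, and of the neighbouring genes C1qb and C1qa, of which 1 has matches and the other has none. Capitals mark GAGGAA or its reverse complement TTCCTC; each runs 5′ to 3′ on the gene's strand and ends at the base before the start.
Lyz2 (chr7:54798012-54798261, minus strand): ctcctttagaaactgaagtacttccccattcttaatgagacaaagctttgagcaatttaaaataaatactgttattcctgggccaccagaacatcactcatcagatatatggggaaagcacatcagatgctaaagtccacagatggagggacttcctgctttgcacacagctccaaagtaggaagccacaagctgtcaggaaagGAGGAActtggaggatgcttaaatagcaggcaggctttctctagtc
Cd68 (chr10:54882442-54882691, minus strand): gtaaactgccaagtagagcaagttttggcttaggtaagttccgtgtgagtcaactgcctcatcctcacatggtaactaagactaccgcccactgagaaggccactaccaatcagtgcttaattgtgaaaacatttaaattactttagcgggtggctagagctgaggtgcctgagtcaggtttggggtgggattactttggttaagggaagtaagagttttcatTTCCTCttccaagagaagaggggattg
Mrc1 (chr17:82157475-82157724, plus strand): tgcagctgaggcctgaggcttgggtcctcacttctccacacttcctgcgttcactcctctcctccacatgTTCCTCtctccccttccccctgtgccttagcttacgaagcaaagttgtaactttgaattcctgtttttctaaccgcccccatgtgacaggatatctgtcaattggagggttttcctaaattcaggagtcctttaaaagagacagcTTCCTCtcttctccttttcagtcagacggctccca
C1qb (chr5:154407828-154408077, minus strand): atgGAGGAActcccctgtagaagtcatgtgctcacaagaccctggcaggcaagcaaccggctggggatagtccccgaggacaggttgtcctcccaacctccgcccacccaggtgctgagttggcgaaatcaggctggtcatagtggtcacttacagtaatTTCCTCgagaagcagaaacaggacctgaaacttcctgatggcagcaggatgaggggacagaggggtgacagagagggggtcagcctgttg
C1qa (chr5:154419934-154420183, minus strand): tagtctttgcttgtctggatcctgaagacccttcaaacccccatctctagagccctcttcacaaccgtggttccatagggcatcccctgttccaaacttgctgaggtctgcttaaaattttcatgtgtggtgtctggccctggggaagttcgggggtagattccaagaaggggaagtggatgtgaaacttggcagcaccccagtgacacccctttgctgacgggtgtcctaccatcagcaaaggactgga
The first base of the match lay 46 bases upstream in Lyz2, 27 in Cd68, 180 and 35 in Mrc1 and 247 and 90 in C1qb. Among the markers not printed, Csf1r held 2 matches, Adgre1 and Ptprc 1 each, and Cd163, like C1qa, held 0. The promoter of Adgre1 is on the plus strand in GRCr8, whereas the expression data, which name no build, place the gene on the minus strand.

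The C1q chains showed the lowest remaining levels of the markers that passed. Their genes lie next to each other on the minus strand of chromosome 5, C1qb from 155246447 to 155252003, C1qc from 155255005 to 155258392 and C1qa from 155261250 to 155264143; the table names no build. C1qa measured 5.37, 6.96 and 4.28 FPKM with siNC and 1.57, 2.07 and 2.15 with siMETTL3, both in order of replicate number, as for every gene below. The siMETTL3 values are close together and all under the lowest siNC value. Its mean was 34.9% of the siNC mean, with an edgeR log2 fold change of -1.59 (SE 0.220, adjusted p = 0.00965). C1qb measured 2.12, 2.73 and 2.34 FPKM against 0.797, 0.777 and 0.490, or 28.7% of the siNC mean (log2 fold change -1.87, SE 0.247, adjusted p = 0.00847). The lowest siNC value of C1qb was well above its highest siMETTL3 value. C1qc measured 1.47, 1.94 and 0.840 FPKM against 0.633, 0.398 and 0.40, or 33.7% (log2 fold change -1.63, SE 0.374, adjusted p = 0.0443). In C1qc, siNC replicate 3 came near the siMETTL3 libraries, and the groups just failed to overlap. C1qa and C1qb passed without any 1 library (adjusted p at most 0.0483 and 0.0356). Of the fits with 1 library left out, C1qc passed in that lacking siNC replicate 3 (0.0318). It failed when siNC replicate 1 (0.133) or 2 (0.132) was dropped, and when siMETTL3 replicate 1 (0.0814), 2 (0.125) or 3 (0.118) was. Counts behind the chains were modest, from 33 for C1qc in siMETTL3 replicate 3 to 561 for C1qa in siNC replicate 2.

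Lyz2 and Cd68, the products of phagocytic cells, were the most abundant markers and both fell. Lyz2 measured 45.7, 47.1 and 40.5 FPKM in siNC and 22.4, 18.6 and 27.5 in siMETTL3, or 51.3% of the siNC mean (log2 fold change -1.04, SE 0.145, adjusted p = 0.00981). Its lowest siNC library lay far above its highest siMETTL3 library, which was replicate 3. Without siMETTL3 replicate 1 it did not pass (adjusted p = 0.0532). Cd68 measured 18.9, 22.7 and 16.6 FPKM against 12.2, 10.9 and 12.7, or 61.5% (log2 fold change -0.78, SE 0.130, adjusted p = 0.0164). The siNC values of Cd68 were spread more widely than its siMETTL3 values, without overlap. The Cd68 call was lost without siNC replicate 1 (adjusted p = 0.0639) or siMETTL3 replicate 1 (0.0684). The table places Lyz2 on chromosome 7 (60335969 to 60341264, minus strand) and Cd68 on chromosome 10 (56268720 to 56270640, minus strand).

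Adgre1 and Csf1r encode receptors at the cell surface, and both fell. Adgre1, which encodes F4/80 (chromosome 9, 9431860 to 9585865, minus strand), measured 3.04, 3.27 and 3.15 FPKM in siNC and 1.28, 1.42 and 1.92 in siMETTL3. The siNC libraries were tight and the groups lay far apart, at 49.0% of the siNC mean (log2 fold change -1.11, SE 0.161, adjusted p = 0.0107), and Adgre1 passed without any 1 library (at most 0.0474). Csf1r, the receptor for Csf1 and Il34 (chromosome 18, 56414488 to 56457869, plus strand), measured 2.79, 2.76 and 2.54 FPKM against 2.06, 2.15 and 2.29. Its groups came close without overlapping, and siMETTL3 kept 80.4% of the siNC mean (log2 fold change -0.40, SE 0.0913, adjusted p = 0.0457). The Csf1r call was lost whichever library was left out: dropping siNC replicate 1, 2 or 3 gave an adjusted p of 0.155, 0.130 or 0.0600, and dropping siMETTL3 replicate 1, 2 or 3 gave 0.158, 0.130 or 0.0856. It was also lost with total-count scaling and without a filter on low counts.

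The scavenger and mannose receptors of resident macrophages were scarce. Mrc1 (chromosome 17, 81352700 to 81433743, plus strand) measured 1.19, 1.36 and 1.15 FPKM in siNC and 0.660, 0.460 and 0.926 in siMETTL3, or 55.3% of the siNC mean. The siMETTL3 libraries differed among themselves by a factor of about the same size as the group difference, and Mrc1 did not pass (log2 fold change -0.93, SE 0.248, adjusted p = 0.0677). It did pass without siMETTL3 replicate 3 (0.0359). Cd163, a haemoglobin scavenger receptor (chromosome 4, 156752082 to 156785467, plus strand), measured 0.201, 0.276 and 0.231 FPKM against 0.113, 0.0339 and 0.0765. At counts of 12 to 91 per library it was the lowest of the markers, at 31.6% of the siNC mean (log2 fold change -1.70, SE 0.438, adjusted p = 0.0617). Ptprc, the pan-leukocyte phosphatase CD45 (chromosome 13, 55061562 to 55173692, minus strand), measured 0.434, 0.623 and 0.720 FPKM against 0.375, 0.343 and 0.417. The lowest siNC library of Ptprc was close to the highest siMETTL3 library, and the remaining level was 63.9% (log2 fold change -0.72, SE 0.223, adjusted p = 0.0980).

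If the markers had all fallen by 1 factor, their remaining levels would agree within error. By edgeR they ran from 27.3% of siNC for C1qb to 76.0% for Csf1r, and the ratio of the highest to the lowest, on FPKM means, was 2.80. The 95% intervals of 7 markers held the median of 47.5%. The interval of Csf1r (65.5% to 88.2%) lay above it, and those of C1qb (18.3% to 40.8%) and, narrowly, C1qa (23.2% to 47.3%) lay below it. These intervals are not adjusted for the number of markers. The interval of Csf1r stayed above the median of the markers in each alternative fit run, and that of C1qb stayed below it except by limma on log2(FPKM + 1), which compresses low genes, and without siMETTL3 replicate 3. C1qa was below in fewer of them, and Cd68 lay above in some, among them DESeq2 and total-count scaling. For Cd163, C1qc, Ptprc and Mrc1 the intervals held 47.5% with all libraries. Cd163 lay below the median of the markers without siMETTL3 replicate 1, and C1qc without siNC replicate 3.

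**Figure D2:**
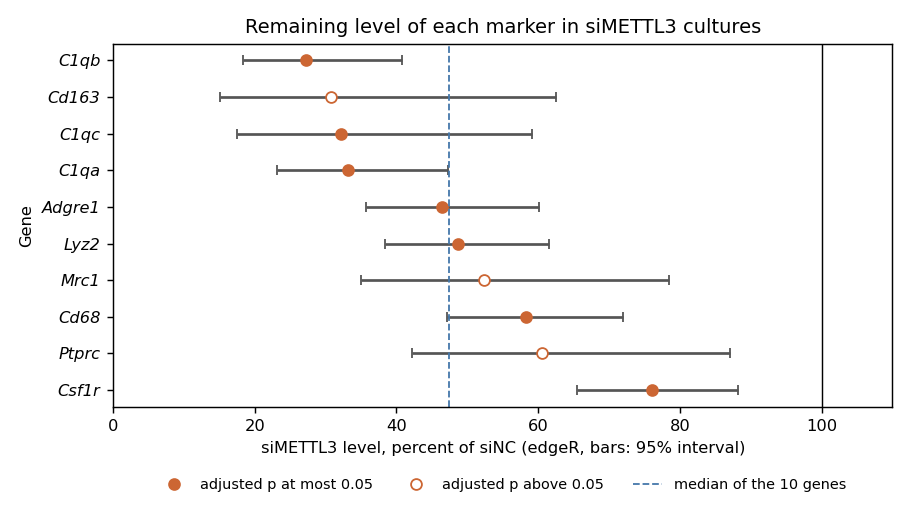
Level remaining in siMETTL3 as a percent of siNC (edgeR estimate, 3 against 3 libraries) for each marker, with 95% intervals; filled points passed the threshold and open points did not. The dashed line is the median of 47.5%, which the interval of Csf1r does not reach from above. From below, the intervals of C1qb and, narrowly, C1qa do not reach it.

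The ratio of a pair of markers within a library removes any shared factor. For C1qb over Csf1r the FPKM ratio was 0.762, 0.990 and 0.919 in siNC and 0.387, 0.361 and 0.214 in siMETTL3. For Lyz2 over Csf1r it was 16.4, 17.1 and 15.9 against 10.9, 8.64 and 12.0, and for C1qa over Cd68 0.284, 0.306 and 0.258 against 0.128, 0.190 and 0.170. In each of these the second gene kept more of its level, with no overlap between the groups. Of the 45 pairs, 16 did not overlap (35.6%), against 29.6% of all pairs of tested genes with counts in every library. The share is near that background, so the number of pairs is not in itself a result about the markers. Csf1r was in 8 of the 16, out of 9 pairs it can form, and kept more of its level in all 8; C1qb was in 6. Among the 36 pairs without Csf1r, 8 did not overlap. Among the 3 C1q chains 0 of 3 pairs were separated, which at this spread does not show that their ratios were kept. C1qb over C1qa was 0.395, 0.392 and 0.546 in siNC and 0.509, 0.374 and 0.228 in siMETTL3. By the exact permutation test no pair can go below 0.1, and adjusted over the 45 pairs the smallest p was 0.281. With 1 library left out, 18 to 27 pairs did not overlap where 37.2% to 44.6% of all pairs did not; the 18 was without siNC replicate 2 and the 27 without siNC replicate 3.

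**Figure D3:**
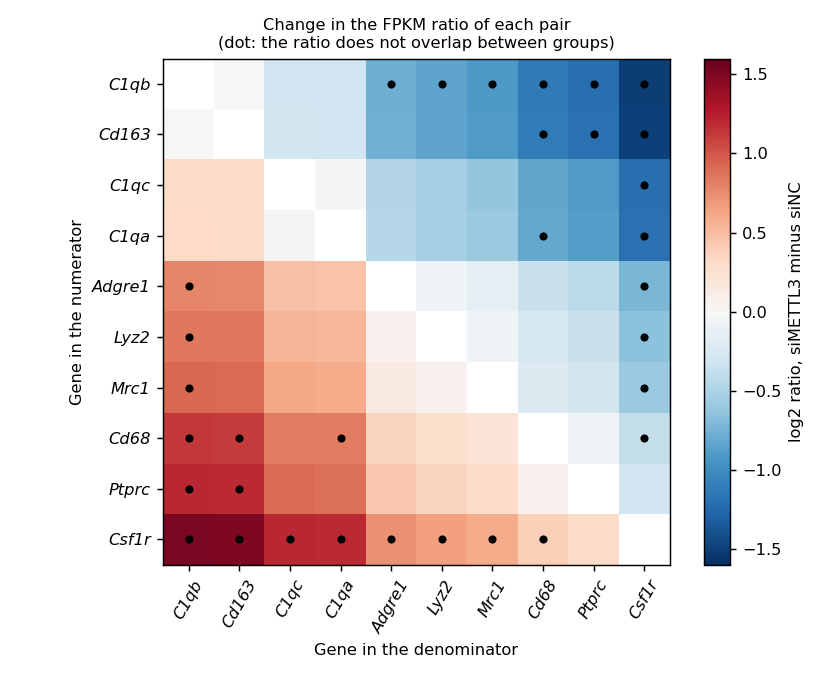
Difference between groups (siMETTL3 minus siNC) in the mean log2 FPKM ratio of each pair of markers, row gene over column gene; a dot marks a ratio with no overlap between the 3 and 3 libraries. Dots fill 8 of the 9 cells of the Csf1r row, and none lies among the C1q chains.

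Most markers had the same highest or lowest library within a group, though the share of all genes with that order was not computed. In siNC, replicate 2 had the highest value of 8 of the 10 markers and replicate 3 the lowest of 6. In siMETTL3, replicate 3 had the highest value of 7 and replicate 2 the lowest of 6. This order was not particular to the markers. The smooth muscle gene Tagln had it too, at 1293, 1388 and 1136 FPKM in siNC and 877, 743 and 913 in siMETTL3. The cardiomyocyte gene Ryr2 had the reverse, at 25.2, 19.0 and 36.1 against 31.2, 43.0 and 28.0. The summed FPKM of the markers was 81.2, 89.7 and 72.3 in siNC and 42.1, 37.1 and 48.8 in siMETTL3. Left without Lyz2, which made up more than any other marker, the sums were 35.5, 42.6 and 31.8 against 19.7, 18.6 and 21.3.

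Other genes of macrophages were read from a list that holds none of the 10. Of 22 tested, 6 fell and 0 rose by edgeR, where 4.89% of all genes fell and 2.31% rose. At an unadjusted p of 0.05, 10 fell and 1 rose, where 13.5% of all genes were lower. The median log2 fold change of the list was -0.71. By limma 4 of the 7 with at least 1 FPKM fell (4.40% of all genes), and by DESeq2 8 fell (9.32% of all genes). Cybb, the catalytic subunit of the phagocyte oxidase, measured 2.21, 2.25 and 2.26 FPKM in siNC and 1.09, 1.09 and 1.22 in siMETTL3 (log2 fold change -1.06, adjusted p = 0.00288). Its groups lay far apart. Stab1 (stabilin 1, a scavenger receptor; -2.02, adjusted p = 0.00765), Folr2 (a folate receptor of resident macrophages; -2.03, 0.0115) and Cd14 (the LPS co-receptor; -0.71, 0.00965) fell too. The others that fell were the lysosomal protease Ctss and the integrin Itgam, which are named because 6 fell in all. Stab1, Cybb and Cd14 passed without any 1 library, and the number that fell was 3 without siNC replicate 1 and 4 to 6 without any other. Spi1, which encodes PU.1, measured 1.29, 0.681 and 0.841 FPKM against 0.665, 0.722 and 0.691; the groups overlapped and it did not pass (-0.51, adjusted p = 0.28). Cx3cr1 and Vsig4 had a count of 0 in all libraries, which allows up to 3 counts in each, for counting error only.

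Of 15 genes of leukocytes in general, 4 fell by edgeR, where 4.89% of all genes did. Among them were the integrin subunit Itgb2 (-0.72), the receptor adaptor Fcer1g (-0.66) and the actin-bundling protein Lcp1 (-0.62). The median of the list was -0.36. Without siNC replicate 1 or 2 or siMETTL3 replicate 1 the number that fell was 0 by edgeR. With all libraries, 7 fell at an unadjusted p of 0.05 (13.5% of all genes) and 4 by DESeq2 (9.32% of all genes). Some defining markers of lymphocytes and granulocytes had no counts, whereas other genes of those lists were detected. Cd3e and Cd3d of T cells, Ms4a1 of B cells, and Mpo, Elane and Fcer1a of neutrophils and mast cells had a count of 0 in all libraries. The summed level was 1.90 to 2.22 FPKM in siNC and 1.04 to 1.83 in siMETTL3 for the 8 T cell genes. Lck was the highest of them, at 1.37, 1.09 and 1.08 FPKM in siNC and 0.647, 1.05 and 1.15 in siMETTL3. That is above the markers Ptprc and Cd163 in every library. For the 6 B cell genes the summed level was 0.259 to 0.499 against 0.243 to 0.420. For the 10 neutrophil and mast cell genes, of which Kit and Hdc are also made by other cells, it was 9.68 to 10.9 against 9.97 to 10.3.

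Of the ligands of Csf1r, Csf1 was abundant and Il34 scarce. Il34 measured 1.21, 1.38 and 1.6 FPKM in siNC and 1.93, 2.0 and 2.79 in siMETTL3, higher without overlap, and did not pass (log2 fold change 0.60, SE 0.199, adjusted p = 0.118). Csf1 measured 144, 139 and 149 FPKM in siNC and 124, 128 and 134 in siMETTL3, a fall without overlap (-0.24, SE 0.0549, adjusted p = 0.0432) that was lost whichever library was left out (0.0777 to 0.165) and by limma (0.0947). The fractalkine gene Cx3cl1 rose, from 109, 103 and 112 to 131, 138 and 142 FPKM (0.27, adjusted p = 0.0377), where 2.31% of all genes rose; it passed with 1 library left out only without siNC replicate 3. Of 8 such signals these 2 passed, where 7.20% of all genes passed in either direction. Among 7 partners of C1q in the complement cascade, C1r (-0.47), Serping1 (-0.45) and C2 (-0.40) fell, where 4.89% of all genes did. When 1 library was left out, 0 to 2 of the partners fell. C1r, the protease of the C1 complex, stood at 61.6, 60.1 and 55.8 FPKM against 43.1, 42.5 and 49.7, far above any C1q chain. Of 14 lysosome genes 1 fell, where 4.89% of all genes did, and the median was -0.14.

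Genes of other cells in the cultures moved as well, and their part in the fall of the markers was not tested. Over all genes tested by edgeR, 4.89% fell and 2.31% rose. Of 8 fibroblast genes 6 fell, with a median of -0.69 and a summed level of 1438 to 1509 FPKM in siNC and 887 to 943 in siMETTL3. Col3a1 (-0.92), Col1a1 (-0.75), Postn (-0.69) and Lum (-0.64) were among them, and the count was 3 without siNC replicate 1 or 3 or siMETTL3 replicate 1 or 2. Of 8 smooth muscle and pericyte genes 4 fell, Cnn1 (-0.93), Acta2 (-0.68), Tagln (-0.67) and Myh11 (-0.58), with a summed level of 3738 to 4235 FPKM against 2520 to 2725. Of 7 endothelial genes Cdh5 (0.70) and Tek (0.40) rose and Egfl7 (-0.65) fell, with a sum of 15.4 to 17.8 against 17.7 to 19.1. The Egfl7 call was lost whichever library was left out, with total-count scaling and without a filter on low counts. With 1 library left out, Tek passed only without siNC replicate 3, and Cdh5 did not pass without siNC replicate 1 or siMETTL3 replicate 1. Among 8 cardiomyocyte genes Actc1 (-0.53) and Myh7 (-0.34) fell, and the median was -0.026; with 1 library left out neither passed, except Actc1 without siNC replicate 3. None of the defining genes of fibroblasts, smooth muscle, endothelium or cardiomyocytes listed was at 0.

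**Figure D4:**
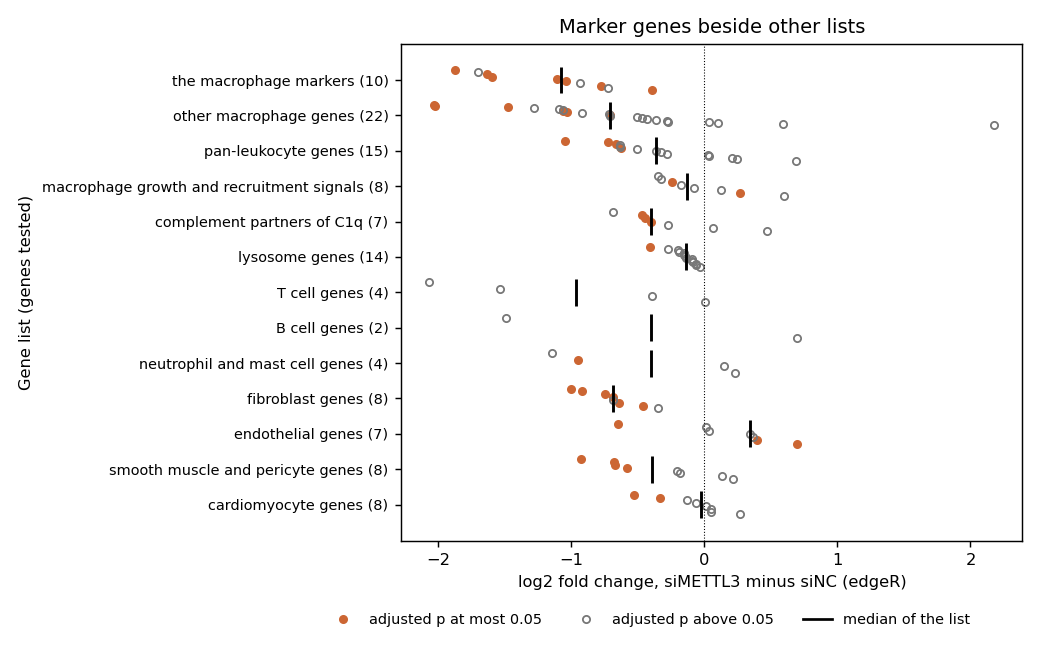
edgeR log2 fold change (siMETTL3 minus siNC, 3 against 3 libraries) of every tested gene of the markers and 12 other lists, with the number tested in brackets; filled points passed the threshold and the vertical bar is the list's median. The macrophage markers have the lowest median of these lists (-1.07), followed by the T cell genes (-0.96, 4 tested and 0 called); the fibroblast genes lie at -0.69 and the cardiomyocyte genes near 0. The lists were chosen with earlier results of these data known.

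The genes whose pattern over the 6 libraries was most like the markers included genes of smooth muscle and of secreted matrix and signals. Likeness was the root mean square difference, in log2 units, between a gene's centred log2 FPKM and the median centred profile of the 10 markers, over 12963 genes with at least 1 FPKM. Of the markers themselves Lyz2 was nearest to that profile (0.0653) and Cd163 farthest (0.623). The 10 nearest other genes lay between 0.0602 and 0.0885. They were, in order, Cnn1 (calponin, of smooth muscle), Matn4 (a matrix protein), Ube2ql1, Ccn2 (connective tissue growth factor), the chemokine Ccl3, Ndufc2 (a subunit of respiratory complex I), Serpinb1a (a protease inhibitor), Nupr1l1, Nupr1 (a stress-response regulator) and Actg2 (smooth muscle actin). Cnn1, for one, went from 285, 304 and 279 FPKM to 168, 137 and 176, with the same highest and lowest libraries as Lyz2 in siMETTL3 and in siNC. Ccl3 went from 31.4, 37.1 and 33.3 to 19.7, 15.4 and 21.2.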

How the data were processed

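Total RNA of 6 cultures was sequenced as paired ends. The table deposited by the authors holds 2 units per gene and library. Counts are whole numbers, unnormalized per the file headers. The FPKM values were scaled by the authors to transcript length and library size, per the file headers, with 0.0001 where the count is 0. Within a gene, the ratio of count to FPKM divided by the library's total count was constant within 1% for 98.7% of values. This covers 14527 genes, each count 20 or more, so the units are not independent evidence. Bowtie 0.12.2 and mm8, a mouse build, stand in the submitters' processing notes with no role, while the genes are rat Ensembl genes; how reads were aligned and counted is not given in the sources used here.

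Genes with a mean count of at least 10 over the 6 libraries (16477) were tested with edgeR 4.0.16 (quasi-likelihood, trimmed-mean scaling, 2-sided) in R 4.3.3, with p-values adjusted by Benjamini-Hochberg over all genes. The SE is the size of the log2 fold change divided by the root of F. limma 3.58.1 on log2(FPKM + 1), for genes averaging 1 FPKM or more, and DESeq2 1.42.0 were alternatives, as were other scalings, filters and leaving out each library. Named were the 10 markers, up to 4 called genes per list with the smallest p (otherwise the 2 most abundant), Spi1, Csf1, Mettl3 and the 10 genes most alike, clone and model identifiers excluded. The markers and the 12 other lists (128 symbols, 124 found, 107 tested) were chosen with earlier results of these data known. The total count of 71202469 to 76668751 makes counting error small except for the scarce markers. Replicates differed by more than counting error, with a chi-square per degree of freedom of 22.1 to 63.1. Promoter sequences are from RefSeq. Some genes of the lists are not reported here by name.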

Additional observations from a re-analysis of the deposited data

How the results depend on the processing

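The macrophage markers had fold changes below 0 under every alternative run. Of 7 calls among the markers, 6 remained with total-count scaling, 7 with median-ratio scaling and 5 without a filter, while the fits restricted to at least 1 FPKM tested 6 markers and called 6 by edgeR and 5 by limma with a pseudocount of 1 or 0.1. With 1 library left out the markers called numbered 3 to 6, calls in the other lists 10 to 23 (32 with all libraries), all genes called 272 to 891 (1187), and separated marker pairs 18 to 27 (16). DESeq2 called 2443 genes. The labels give no day or animal shared by libraries of the same replicate number. Deviations from the group mean correlated at 0.052, -0.253 and -0.141 for same-numbered libraries and at -0.16 to 0.273 for the others. With 3 libraries per group the deviations are tied to each other, so these values cannot settle whether the numbers pair the samples. With the replicate block 66 genes were called, 3 in the other lists and 0 of the 10 markers with adjusted p from 0.0659 to 0.219, though all 10 were lower at an unadjusted p of 0.05, as were 10.2% of all genes. The T cell gene Cd8a, at a log2 fold change of 0.0058, went to -0.054 with the block and to between -0.29 and 0.26 with 1 library left out (-0.034 without siNC replicate 2, -0.29 without siMETTL3 replicate 2). Removing a library, or adding the replicate block, leaves fewer residual degrees of freedom by construction. What caused the changes in the calls was not tested. Depth limits Cd163 and C1qc most, with counts as low as 12 and 33.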

Other observations

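Several genes often named with macrophages stood apart from the 10 markers, without passing the test by edgeR. Cd74, the invariant chain of antigen presentation, measured 4.35, 4.02 and 4.0 FPKM in siNC and 4.49, 4.66 and 4.23 in siMETTL3 (log2 fold change 0.034, SE 0.104, adjusted p = 0.877). Mertk, a receptor for the uptake of dead cells, measured 1.93, 1.21 and 1.87 FPKM against 2.17, 1.81 and 1.67 (0.099, adjusted p = 0.804). F13a1, the A subunit of coagulation factor XIII, had counts of 3, 4 and 12 against 22, 41 and 30 (2.18, SE 0.666, adjusted p = 0.0965), with no overlap between the groups. Lyve1, a hyaluronan receptor that lymphatic endothelium also carries, measured 0.568, 0.303 and 0.310 FPKM against 0.531, 0.623 and 0.719 (0.59, adjusted p = 0.273). These genes were chosen for mention after their values had been seen.

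Cd4, which rat macrophages carry as well as T cells, had counts of 50, 62 and 44 in siNC and 12, 17 and 27 in siMETTL3 (log2 fold change -1.54, SE 0.417, adjusted p = 0.0714), and Cd5 counts of 25, 37 and 23 against 5, 8 and 8 (-2.07, SE 0.507, adjusted p = 0.0552). Neither overlapped between groups, neither passed by edgeR, and DESeq2 called Cd4. Hdc, which makes histamine, fell from 2.63, 3.18 and 2.19 to 1.17, 1.5 and 1.71 FPKM (-0.95, adjusted p = 0.0328); with 1 library left out it passed only without siNC replicate 3. Cd4 and Cd5 were also singled out after their values had been seen.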
